A study of Homo sapiens with 9 samples.

Results

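Zinc finger genes of the ZNF series on human chromosome 19 were followed in U2-OS cells, an established osteosarcoma cell line. The members were all protein-coding genes of chromosome 19 whose GENCODE symbol is ZNF followed by digits and nothing else. There were 240 such genes, out of 60609 gene identifiers counted, and all 240 were present in the count tables. The series holds 9 RNA-seq libraries: 3 from clone A1 and 3 from clone A4, which both overexpress NCBP2, a protein that binds the cap of nascent transcripts as part of a heterodimer, and 3 from empty-vector clones. Each vector library came from a clone of its own, so that 5 clones were sampled in all, while clones A1 and A4 gave 3 libraries each (replicates A, B and C). All cells were U2-OS grown in DMEM with fetal bovine serum, and the vector clones were obtained in the same way without the NCBP2 insert. The labels do not say whether the 3 libraries of a clone came from separate cultures, so the spread within clone A1 or A4 may be technical, and each overexpressing line is a single clone.

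Most genes of this kind encode proteins with a run of C2H2 zinc fingers that bind DNA, and many also carry a KRAB domain. The KRAB domain recruits TRIM28, which in turn brings the methyltransferase SETDB1 and heterochromatin proteins to the bound site. The genes arose largely by tandem duplication, lie in clusters along chromosome 19, and are known for silencing transposable elements. ZNF274 is itself a repressor that binds the ends of other zinc finger genes.

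Per-library depth ranged from 29234022 to 50554080 reads assigned to genes. NCBP2, the check of the labels, was at 299, 348 and 304 CPM (read counts scaled to a common library size) in clone A1, at 796, 1035 and 456 CPM in clone A4 and at 98.3, 90.6 and 98.2 CPM in the vector clones. Of 10 osteoblast markers 7 were expressed well enough to be tested, among them RUNX2, COL1A1 and SPARC, while SP7, BGLAP and IBSP stayed at 3 counts or fewer in every library. TERT, which U2-OS is known not to use for telomere maintenance, had no count. The 5 epithelial markers summed to between 7.14 and 12.6 CPM, the 5 blood markers to between 0.399 and 2.0 CPM, and the 3 endothelial markers to at most 2.87 CPM. Clone A1 replicate A stood apart, with the lowest correlations to the other libraries over tested genes (r from 0.899 to 0.928, across genes). At the lowest depth, it had the fewest genes detected (21823, against up to 29787). It also had the highest share of uniquely mapped reads not assigned to a gene (52.4%). Vector replicate B stood at the other end, with 32.4% of its uniquely mapped reads not assigned to a gene. The library titles name ribodepletion while the molecule label says polyA RNA, so the labels do not settle the library type. Among the unassigned reads those in introns and those between genes were not told apart.

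With starts up to 1 Mb apart joined, the members formed 9 clusters of at least 5 genes, and 9 genes were left dispersed. Cluster 1 (GRCh38, chromosome 19, 2819868 to 2944971) held 5 genes, cluster 2 (7069703 to 9793180) 15, cluster 3 (11483427 to 12640098) 25 and cluster 4 (19668796 to 24129968), next to the centromere on the short arm, 37. On the long arm, cluster 5 (34677639 to 34964229) held 5 genes, cluster 6 (36182276 to 37817300) 24, cluster 7 (43525497 to 45076478) 24, cluster 8 (51571283 to 53580269) 39 and cluster 9 (55476617 to 58481230) 57. On the strands, 131 members lay on the plus and 109 on the minus strand, and 91 of 222 neighbouring pairs within clusters lay on opposite strands.

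Most members were active in every clone. A mean of at least 0.5 CPM in all 5 clones was reached by 192 of 240 members, or 80.0% (95% Wilson interval 74.5 to 84.6%), against 61.4% of the 19646 other protein-coding genes. In bulk libraries a lower level can come from fewer expressing cells or from less RNA per cell, and these cannot be told apart. Per kilobase of exon, the active members were expressed at a low level, with a median of 2.23 CPM per kb against 4.98 CPM per kb for the other active protein-coding genes and 2.63 CPM per kb for the other active genes of chromosome 19.

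**Figure D1:**
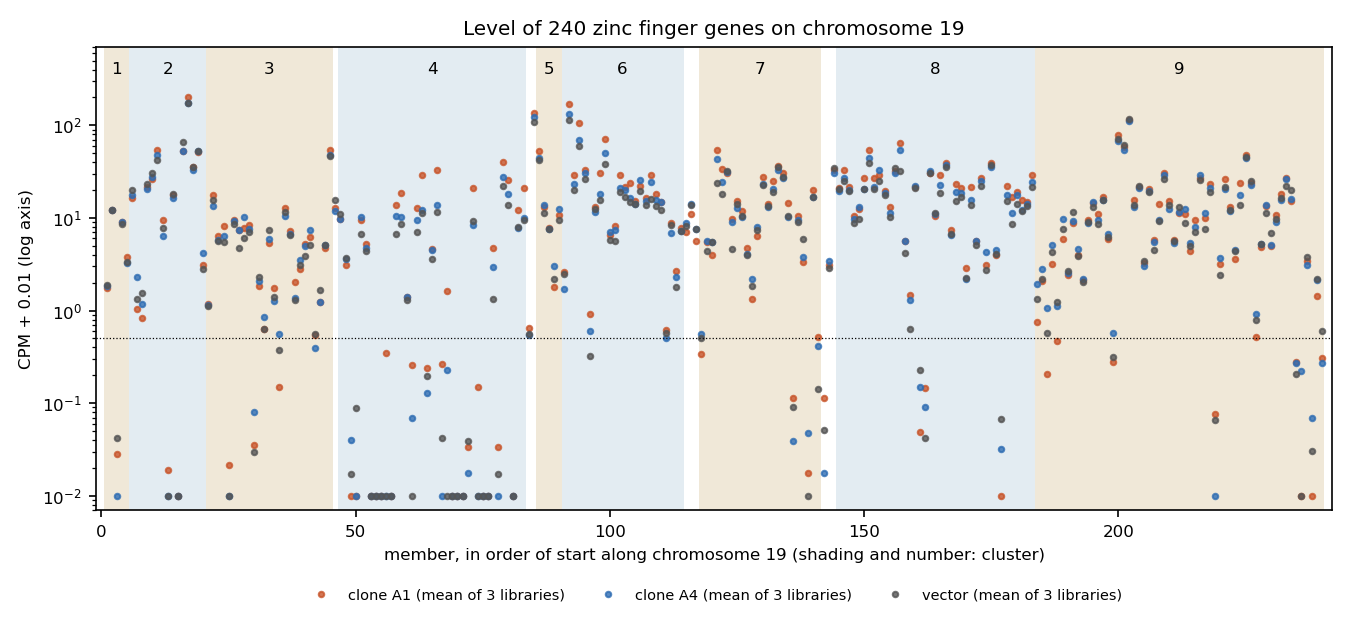
Mean CPM of each of the 240 genes (log axis, 0.01 added) in clone A1, clone A4 and the vector clones, each a mean of 3 libraries, with genes in order of their start and clusters shaded and numbered; the dotted line marks 0.5 CPM plus the added 0.01. Most genes lie between 1 and 100 CPM in all 3 groups, and the points at the floor are concentrated in cluster 4, which holds 12 of the 16 genes at 3 counts or fewer in every library.

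The 5 members with the highest level per length were ZNF146, ZNF460, ZNF121, ZNF260 and ZNF507, at means of 33.4, 28.5, 25.3, 14.1 and 10.9 CPM per kb over the 9 libraries. ZNF146 (cluster 6, 36214602 to 36238771, plus strand), a protein made almost wholly of zinc fingers and without a KRAB domain, was at 208, 140 and 157 CPM in clone A1, at 170, 85.3 and 143 CPM in clone A4 and at 158, 43.0 and 140 CPM in the vector clones. Its vector replicate B was the lowest of the 9 libraries and clone A1 replicate A the highest, and the groups overlapped. ZNF460 (cluster 9, 57280051 to 57294069, plus strand) varied least of the 5, from 89.4 CPM in clone A4 replicate C to 127 CPM in vector replicate C. ZNF121 (cluster 2, 9560329 to 9584504, minus strand) ranged from 136 CPM in vector replicate B to 240.3 CPM in clone A1 replicate A. ZNF260 (cluster 6, 36510687 to 36528271, minus strand) ranged from 24.5 to 168 CPM and ZNF507 (dispersed, 32345594 to 32387667, plus strand) from 69.6 to 169.3 CPM, with the same libraries at the low and the high end as for ZNF146. In neighbouring ranks, the per-length levels of ZNF146, ZNF460 and ZNF121 overlapped over the libraries, ZNF146 running from 10.4 to 50.3, ZNF460 from 22.3 to 31.8 and ZNF121 from 18.8 to 33.2 CPM per kb.

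Silence in every library was rarer among the members than among other protein-coding genes and was concentrated in 1 cluster. At most 3 counts in each of the 9 libraries were found for 16 of 240 members (6.67%, Wilson interval 4.14 to 10.6%), against 19.2% of the other protein-coding genes. A limit of 3 counts corresponds to between 0.0585 and 0.105 CPM, depending on the library, and covers counting error alone. Cluster 4 held 12 of the 16, that is 12 of its 37 genes (32.4%, interval 19.6 to 48.5%), while 4 of the 203 members elsewhere (1.97%, interval 0.769 to 4.96%) were silent by the same rule. The 4 were ZNF177 and ZNF560 in cluster 2, ZNF491 in cluster 3 and ZNF229 in cluster 7. ZNF177 shares 90.6% of its exon length with the readthrough gene ZNF559-ZNF177 on the same strand, so its reads may have been left unassigned and its call is uncertain.

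The 12 silent genes of cluster 4 were, in chromosomal order, ZNF506, ZNF90, ZNF486, ZNF737, ZNF66, ZNF257, ZNF676, ZNF729, ZNF723, ZNF728, ZNF724 and ZNF681. Of these, 10 had no count in any library on their own strand, and ZNF506 and ZNF724 had 5 and 4 counts in all. The exons of these genes were largely unique in sequence: between 84.2% (ZNF66) and 100% (ZNF723) of the 75-base windows in their exons occur once in GRCh38, against a median of 99.6% over the 240 members. ZNF724 shares 44.7% of its exon length with an overlapping gene model. Reads on the opposite strand were counted for 4 of the 12, with 2533 over all libraries at ZNF506, 80 at ZNF486, 63 at ZNF66 and 1 at ZNF90.

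Active and silent genes alternated within cluster 4. From its short-arm end, ZNF101 (6.89 to 11.7 CPM) and ZNF14 (2.59 to 5.28 CPM) were expressed in every library, ZNF506 was silent, and ZNF93 and ZNF682 were again expressed. A run with hardly any reads followed, from ZNF90 (start at 20077994) through ZNF486, ZNF737 and ZNF626 to ZNF66 (end at 20809995), broken by 29 counts of ZNF626 in clone A1 replicate A and none in the other 8 libraries. The next gene, ZNF85 (20923222 to 20950697, plus strand), was at 15.8, 13.2 and 12.7 CPM in clone A1, at 10.4, 11.5 and 9.13 CPM in clone A4 and at 7.14, 5.27 and 7.88 CPM in the vector clones. A second run, ZNF257 to ZNF98, had at most 4 counts in any library and lay between ZNF208 and ZNF492 (22634324 to 22667671), which was expressed at 3.16 to 26.0 CPM. Only 67.9% of the exon windows of ZNF492 are unique in the genome, so its level may be understated. In all, 17 of the 37 genes were expressed in all 5 clones, 12 were silent in every library and 8 lay between.

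**Figure D2:**
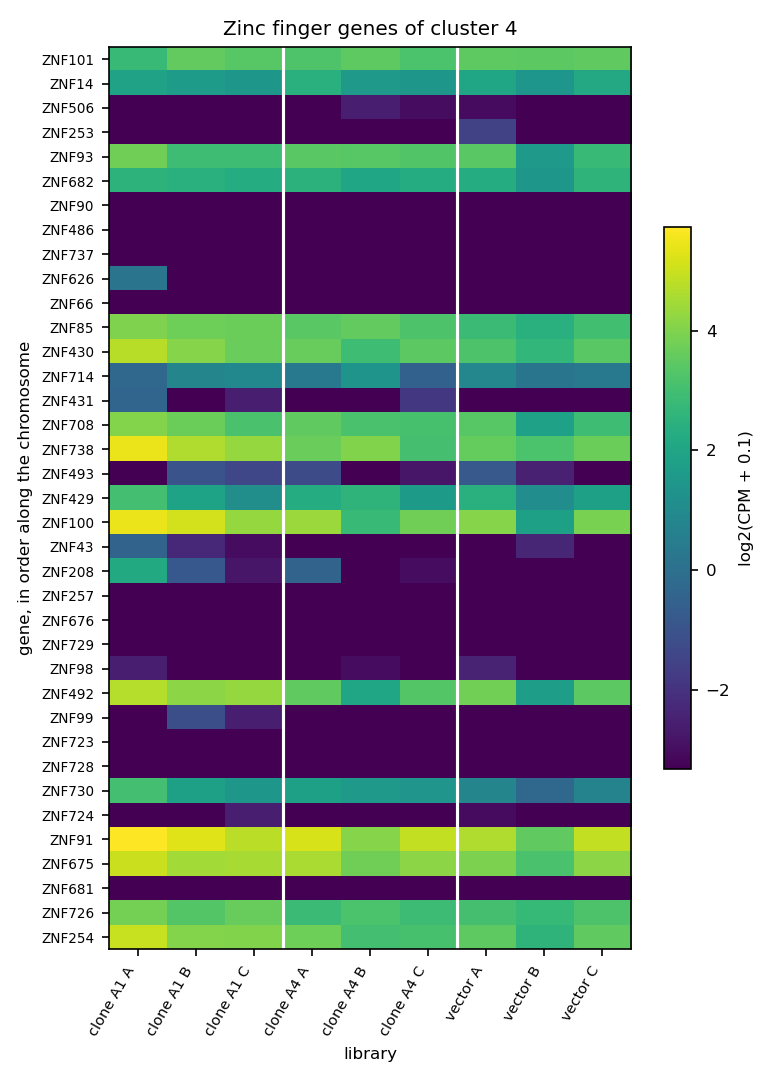
Level of the 37 genes of cluster 4 (rows, in chromosomal order) in the 9 libraries (columns) as log2(CPM + 0.1); white lines part clone A1, clone A4 and vector. The dark rows are the genes without reads and are dark in all 9 columns, while ZNF208, ZNF626, ZNF431 and ZNF43 are lit mainly in clone A1 replicate A.

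Silent and expressed genes of cluster 4 had related promoter sequences. RefSeq start sites (GRCh38.p14) were matched for 210 of the 240 members, and the 250 bases before the start were read for each. Of 128 pairs made of a silent and an expressed gene of cluster 4, the median identity after alignment was 76.1%, with a range from 49.4 to 87.0%. The pair with the highest identity, ZNF93 (expressed at 2.79 to 13.6 CPM) and ZNF486 (no counts), is printed first, and the next pair without those genes, ZNF85 (expressed) and ZNF257 (no counts), follows; they are shown because related sequences (87.0 and 82.5% identity) stand before genes in opposite states. CG dinucleotides are in capitals, and each sequence reads 5′ to 3′ on the plus strand, the coding strand of all 4 genes.
ZNF93 (chr19:19900696-19900945): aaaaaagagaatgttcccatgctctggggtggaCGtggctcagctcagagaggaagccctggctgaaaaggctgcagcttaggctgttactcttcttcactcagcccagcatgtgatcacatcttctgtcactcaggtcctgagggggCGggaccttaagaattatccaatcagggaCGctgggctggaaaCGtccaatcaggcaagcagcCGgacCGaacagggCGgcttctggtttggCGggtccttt
ZNF486 (chr19:20166964-20167213): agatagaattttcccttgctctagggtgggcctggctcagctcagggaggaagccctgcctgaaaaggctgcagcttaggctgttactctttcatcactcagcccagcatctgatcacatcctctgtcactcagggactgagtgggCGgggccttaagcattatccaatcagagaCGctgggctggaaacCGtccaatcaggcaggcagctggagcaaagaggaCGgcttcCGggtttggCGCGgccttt
ZNF85 (chr19:20923001-20923250): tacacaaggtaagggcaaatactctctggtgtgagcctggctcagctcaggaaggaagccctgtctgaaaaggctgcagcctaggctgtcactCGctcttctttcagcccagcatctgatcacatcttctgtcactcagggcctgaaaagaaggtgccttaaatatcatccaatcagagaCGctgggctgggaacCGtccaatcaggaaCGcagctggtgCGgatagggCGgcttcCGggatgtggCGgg
ZNF257 (chr19:22052234-22052483): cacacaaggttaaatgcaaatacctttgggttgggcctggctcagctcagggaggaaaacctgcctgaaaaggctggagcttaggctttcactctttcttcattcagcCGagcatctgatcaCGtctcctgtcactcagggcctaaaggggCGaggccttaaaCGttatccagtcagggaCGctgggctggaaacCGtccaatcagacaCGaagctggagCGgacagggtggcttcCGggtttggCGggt

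ZNF93, which is known to bind LINE-1 elements, had 8 CG dinucleotides in its 250 bases and ZNF486 had 7; ZNF85 had 8 and ZNF257 had 10. Over cluster 4 the median was 8 CG per promoter (29 genes), with 8 in the 16 expressed in all clones and 8.5 in the 8 silent ones. The 181 members outside cluster 4 had a median of 17, and all 34788 distinct promoters of the table a median of 11. The CG counts of cluster 4 (3 to 14) thus lay in the lower part of the range of the other members (1 to 39), and within the cluster those of its silent genes (6 to 11) lay inside the range of its expressed ones. The motif CCGGAAG, the core of ETS factor sites, was searched on both strands and found in 65.5% of cluster 4 promoters (7 of 8 silent and 8 of 16 expressed), in 24.3% of members outside it and in 8.50% of all promoters. GGGCGG, the core of SP1-type GC boxes, was found in 75.9%, 65.7% and 42.6%, TATAAA in 10.3%, 1.10% and 10.8%, and AAGATGGC, the core of YY1 sites, in 0%, 4.42% and 1.36%. No motif of the 4 contains another. A match says that these letters stand in the window and nothing about binding.

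**Figure D3:**
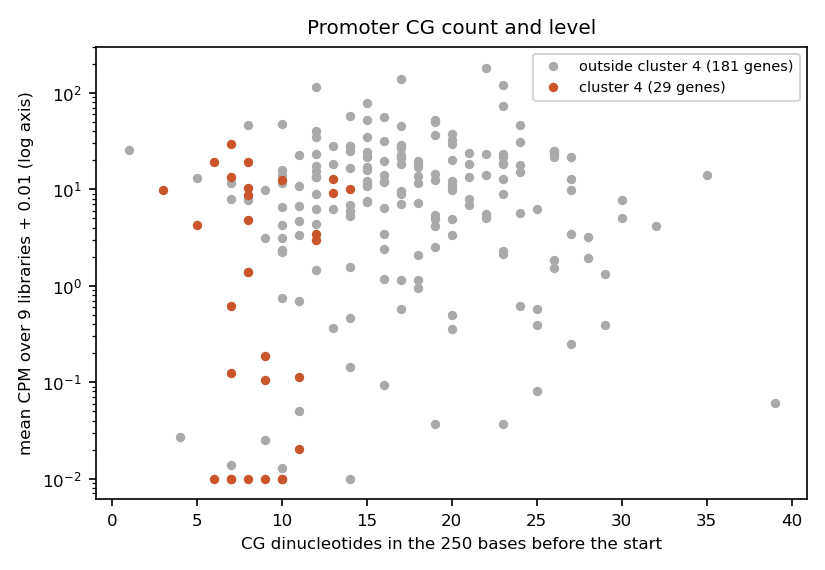
Number of CG dinucleotides in the 250 bases before the RefSeq start (horizontal) against the mean CPM over the 9 libraries (vertical, log axis, 0.01 added) for the 210 genes with a matched promoter. The 29 genes of cluster 4 lie between 3 and 14 CG at all levels of expression, from no counts to above 10 CPM.

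No member was silent in a single clone. The rule asked for at most 3 counts in every library of 1 clone and a mean of at least 0.5 CPM in each of the other 4, and 0 of 240 members met it (upper Wilson limit 1.58%), against 0.0458% of other protein-coding genes (9 of 19646). When the limit for silence was raised to 10 counts, ZNF878 alone was found, a gene named here after its values were seen. Clone A1 gave 26, 16 and 22 counts, clone A4 gave 56, 31 and 28, and the vector clones gave 35, 44 and 10, so the call rested on a single library at the limit.

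A wider rule, silence in at least 1 clone and 0.5 CPM in at least 1 other, was met by 5 of the 206 members that reached 0.5 CPM in any clone (2.43%, against 2.07% of other protein-coding genes). The silent clones were in each case vector clones, which have a single library each: 1 for ZNF625, ZNF382 and ZNF835, 2 for ZNF296 and all 3 for ZNF208. A range of 10-fold or more over the clones was found in 3 of 206 members (1.46%, against 1.86%), ZNF208, ZNF382 and ZNF625. For the genes active in all 5 clones, the highest clone mean exceeded the lowest by a median of 1.69-fold in the members and 1.61-fold in other protein-coding genes.

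ZNF208 lies in cluster 4 (21932958 to 22010949, minus strand). Clone A1 gave 124, 17 and 2 counts of it, clone A4 gave 30, 0 and 1, and none came from the vector clones. Its counts thus came largely from 1 library of each overexpressing clone, and libraries of the same clone were silent. Against a floor of 3 counts per vector library, its mean was at least 24.7-fold higher in clone A1 and at least 3.31-fold higher in clone A4, and without clone A1 replicate A the first bound was 3.84-fold. Without clone A4 replicate A the mean of clone A4 (0.011 CPM) lay below the floor (0.0655 CPM), so that no bound could be given. For ZNF382 (cluster 6, 36604817 to 36634114, plus strand), clone A1 gave 51, 21 and 15 counts, clone A4 gave 30, 23 and 27, and the vector clones gave 25, 19 and 1, so that vector replicate C stood alone. For ZNF625 (cluster 3, 12142090 to 12156734, minus strand), the counts were 0, 4 and 13 from clone A1, 28, 35 and 12 from clone A4 and 35, 15 and 2 from the vector clones, and the groups overlapped. It shares 83.2% of its exon length with same-strand neighbours, mainly the readthrough gene ZNF625-ZNF20, and its level is uncertain.

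For ZNF296 (cluster 7, 45071500 to 45076478, minus strand), clone A1 gave 14, 25 and 15 counts, clone A4 gave 6, 0 and 49, and the vector clones gave 1, 19 and 0. For ZNF835 (cluster 9, 56661980 to 56671783, minus strand), they gave 5, 1 and 26, then 20, 24 and 33, and then 18, 3 and 19. In both genes the spread between libraries of 1 clone was as wide as that between clones.

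Libraries of a single clone also differed. At most 3 counts in one library and at least 10 in another of the same clone were found in 20 of 240 members (8.33%, against 9.3% of other protein-coding genes), 16 of them in clone A1 and 6 in clone A4. In 11 members clone A1 replicate A was the library at 3 counts or fewer, as in ZNF784 (0, 12 and 45 counts) and ZNF536 (0, 24 and 53), and in 4 it was the library at 10 or more, all of them in cluster 4: ZNF626 (29, 0 and 0), ZNF431 (19, 0 and 3), ZNF43 (18, 4 and 1) and ZNF208. ZNF837 (cluster 9) had 24 and 4 counts in clone A4 replicates B and C and none elsewhere, and ZNF99 (cluster 4) 13 and 3 in clone A1 replicates B and C and none elsewhere. In 17 of the 20 members the highest count in any library was under 100. Clone A1 replicate A also had the lowest depth, so a limit of 3 raw counts is reached more easily there.

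The NCBP2 libraries were compared with the vector libraries in a fit over all 21682 genes with enough counts, which included 208 of the 240 members and left out 32. No member was called at an adjusted p under 0.05 by edgeR's quasi-likelihood test, where 0.0184% of all genes tested were called. An unadjusted p under 0.05 was reached by 12 of 208 members (5.77%, against 5.71% of all genes), and DESeq2 called 1, ZNF283. The share of all genes called by DESeq2 is not given here, so this call is not set against genes at large. Of the tested members, 6 were higher in all 6 NCBP2 libraries than in any vector library (2.88%, against 1.46% of all genes), namely ZNF85, ZNF730, ZNF850, ZNF283, ZNF880 and ZNF814, and 2 were lower (0.962%, against 2.26%), ZNF135 and ZNF8. The median log2 fold change was 0.14 over the members and 0.02 over all genes tested. A positive value was found for 147 of 208 members and for 11495 of the 21682 genes tested. The members' median was 0.06 without vector replicate B and 0.01 without that library and clone A1 replicate A.

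ZNF730 (cluster 4, 23075210 to 23147221, plus strand) was at 7.98, 3.44 and 2.63 CPM in clone A1, at 3.46, 2.89 and 2.53 CPM in clone A4 and at 1.62, 0.741 and 1.56 CPM in the vector clones. The groups did not overlap, the log2 fold change of the NCBP2 libraries was 1.54 ± 0.45 (SE) and the edgeR adjusted p was 0.528. ZNF880 (cluster 8, 52369917 to 52385795, plus strand) was at 2.11, 1.13 and 1.17 CPM in clone A1, at 1.51, 1.05 and 1.34 CPM in clone A4 and at 0.844, 0.683 and 0.341 CPM in the vector clones, again without overlap (log2 fold change 1.14 ± 0.47, edgeR adjusted p = 0.784). In the other direction, ZNF135 (cluster 9, 58059239 to 58086310, plus strand) was at 4.40 to 5.77 CPM in the NCBP2 libraries and at 7.40, 7.25 and 5.92 CPM in the vector clones (log2 fold change -0.45 ± 0.22, edgeR adjusted p = 0.906). ZNF8 (cluster 9, 58278955 to 58302791, plus strand) was at 13.9 to 18.2 CPM against 20.3, 20.7 and 19.7 CPM (-0.36 ± 0.17, edgeR adjusted p = 0.874). None of these differences passed the test.

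ZNF283 (cluster 7, 43827321 to 43852017, plus strand) had the lowest adjusted p of the members in this comparison and is named after its values were seen. It was at 63.0, 45.2 and 53.9 CPM in clone A1, at 51.9, 33.8 and 44.8 CPM in clone A4 and at 27.7, 15.4 and 28.1 CPM in the vector clones. Every NCBP2 library lay above every vector library, with a log2 fold change of 1.04 ± 0.24 and an edgeR adjusted p of 0.288, and over the alternatives the edgeR or DESeq2 adjusted p ran from 0.0124 (DESeq2) to 0.99999.

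Clone A1 against vector gave no called member, where 0.0646% of all genes were called. An unadjusted p under 0.05 was found for 22 of 208 members (10.6%, against 7.51% of all genes), and DESeq2 called 5 (ZNF85, ZNF738, ZNF730, ZNF850 and ZNF283). Without the filter on low counts edgeR called 12, and 7 of these lay in cluster 4. The shares of all genes called with DESeq2 or without the filter are not given here. These counts are thus not set against genes at large. All 3 A1 libraries were above all 3 vector libraries for 26 members (12.5%, against 6.18% of all genes) and below them for 8 (3.85%, against 8.06%). The median log2 fold change of the members was 0.17, against -0.02 for all genes tested and -0.20 for the other protein-coding genes of chromosome 19. Without clone A1 replicate A and vector replicate B the members' median was 0.02, and 43 members lay above the vector libraries that were left (20.7%, against 23.2% of all genes) and 38 below (18.3%, against 23.2%).

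The cluster with the highest median in clone A1 was cluster 4. It was picked out here by these same fold changes, so the shares that follow describe the cluster and do not test it. Of its 19 tested genes 17 had a positive log2 fold change, as had 10492 of all 21682 genes tested, and the cluster median was 0.85. All A1 libraries were above all vector libraries for 10 of them (52.6%, against 6.18% of all genes). An unadjusted edgeR p under 0.05 was found for 12 (63.2%, against 7.51% of all genes). With ZNF208 set to its lower bound the median was again 0.85. Outside the cluster, 16 of 189 members lay above all vector libraries (8.47%), and the median was 0.15. The 10 genes were ZNF85, ZNF430, ZNF738, ZNF100, ZNF208, ZNF492, ZNF730, ZNF675, ZNF726 and ZNF254. ZNF208 had no count in the vector clones, so it could pass the filter on low counts only through the NCBP2 libraries. Its place among the 10 was thus largely fixed in advance, and it rests on 2 counts in clone A1 replicate C.

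ZNF100 (21722771 to 21767579, minus strand) was at 43.8, 34.2 and 19.5 CPM in clone A1 and at 16.7, 3.39 and 15 CPM in the vector clones. Its log2 fold change was 1.47 ± 0.54 with an edgeR adjusted p of 0.502. ZNF738 (21358930 to 21388582, plus strand) was at 43.4, 24.7 and 19.3 CPM in clone A1 and at 12.0, 8.93 and 12.8 CPM in the vector clones (1.37 ± 0.34, edgeR adjusted p = 0.249). ZNF91, known as a repressor of SVA elements, was at 52.8, 38.8 and 27.7 CPM in clone A1 and at 25.2, 11.5 and 29.6 CPM in the vector clones, and these groups overlapped (0.85 ± 0.37, edgeR adjusted p = 0.637). ZNF85 had a log2 fold change of 1.04 ± 0.25 (edgeR adjusted p = 0.231). Outside cluster 4, ZNF850 (cluster 6, 36714383 to 36772825, minus strand) had the lowest adjusted p of the members and is named for it, after its values were seen, at 76.8, 65.0 and 69.1 CPM in clone A1 against 44.9, 32.8 and 37.0 CPM (0.88 ± 0.18, edgeR adjusted p = 0.118).

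All 3 A1 libraries had a higher cluster 4 median than any vector library, while the size of the difference depended on single libraries. The median log2 CPM of the 19 tested genes was 3.84, 3.56 and 3.37 in the A1 libraries, 3.39, 2.90 and 3.07 in those of A4, and 3.18, 1.78 and 2.99 in the vector clones. Clone A1 replicate A was the highest and vector replicate B the lowest. Those are the libraries with the highest and lowest share of uniquely mapped reads not assigned to a gene (52.4 and 32.4%). The part of this in the result was not tested. For clone A1 the cluster 4 median fold change went from 0.85 to 0.70 when its replicate A was left out, to 0.54 when vector replicate B was left out and to 0.45 when both were, on the log2 scale. With both left out, 10 of the 19 genes, ZNF208 among them, lay above the remaining vector libraries (52.6%, against 23.2% of all genes). Below them lay 1 (5.26%, against 23.2%). For the NCBP2 libraries together it was 0.64 with all libraries, 0.29 without vector replicate B and 0.13 without both libraries. Pooled within the 3 groups, the SD of the library medians was 0.48 in cluster 4 and 0.40 in cluster 6, against 0.15 in cluster 9.

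**Figure D4:**
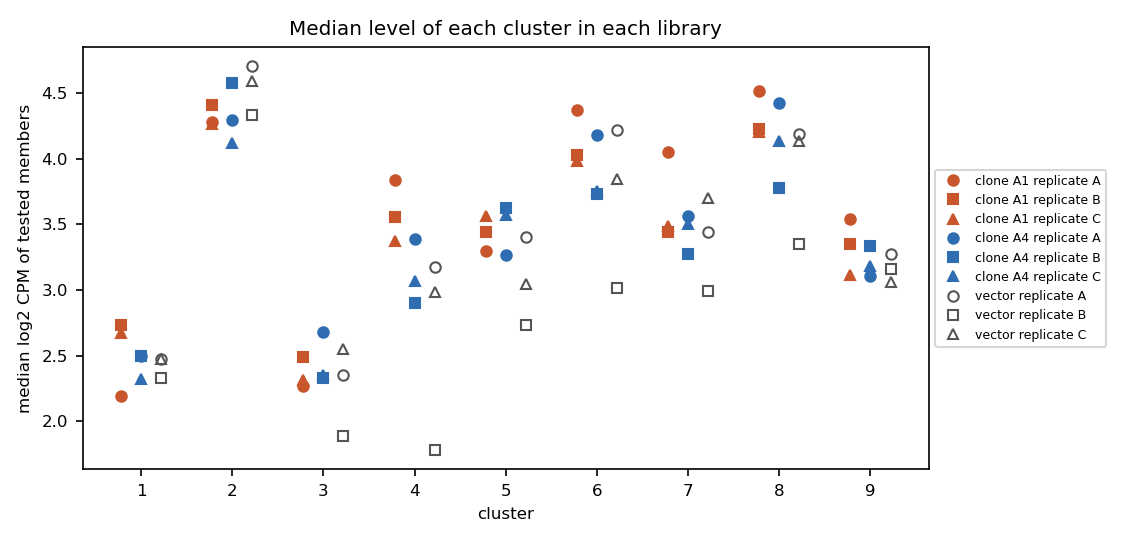
Median log2 CPM of the tested genes of each cluster in each of the 9 libraries, coloured by clone and shaped by replicate letter. In cluster 4 the 3 clone A1 libraries lie at 3.37 to 3.84 and vector replicate B at 1.78, and vector replicate B is also the lowest in clusters 3, 5, 6, 7 and 8.

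Other clusters moved less. In clone A1 against vector 10492 of all 21682 genes tested had a positive log2 fold change. All 24 genes of cluster 6 had one, with a median of 0.40. For 2 of the 24 all A1 libraries lay above every vector library, as for 6.18% of all genes. The median was 0.18 when vector replicate B was left out, 0.27 when clone A1 replicate A was, and 0.06 when both were. The 5 other protein-coding genes in that interval had a median of 0.63. In cluster 8, 33 of 37 genes were positive (median 0.33, against -0.04 for 3 other genes of the interval), and the median was 0.13 when the first or the other of these libraries was left out and -0.02 without both. Clusters 1, 2 and 9 had medians of 0.02, -0.07 and 0.05, while 29 other protein-coding genes lying within cluster 2 had a median of -0.36.

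**Figure D5:**
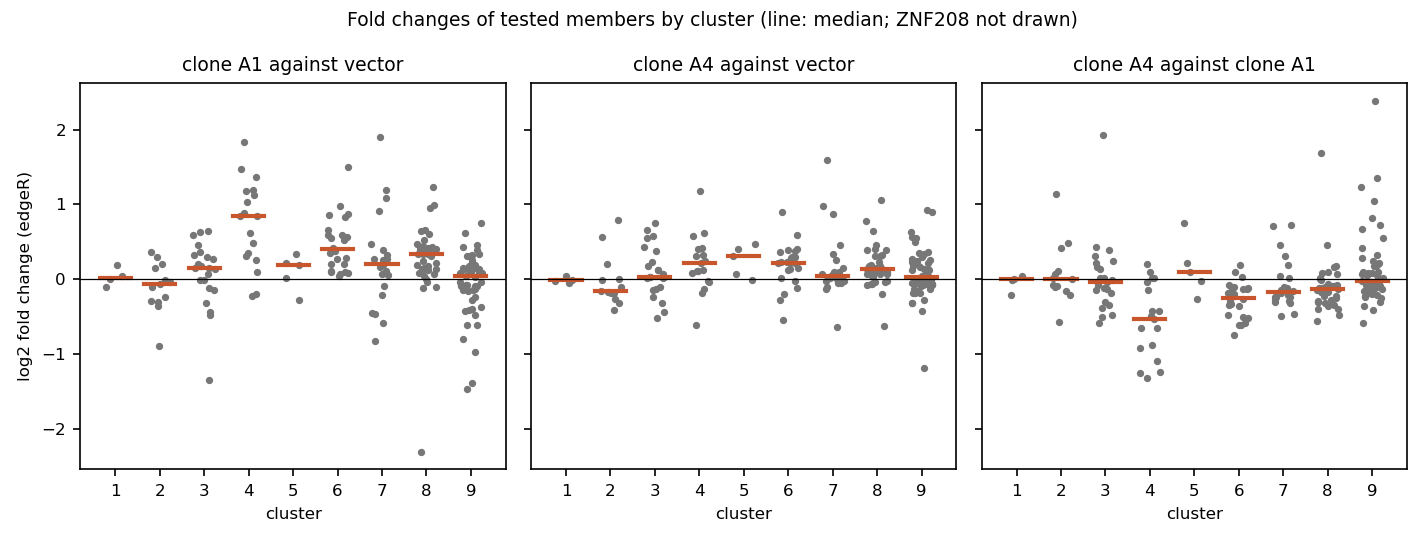
Log2 fold change (edgeR) of each tested gene by cluster in the comparisons of each overexpressing clone with vector (left and middle) and of the 2 clones with each other (right, A4 over A1); red lines are medians, which include ZNF208, whose point is not drawn. In cluster 4 the medians are 0.85, 0.22 and -0.53, and in cluster 9 they are 0.05, 0.02 and -0.02.

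Clone A4 against vector gave no called member with edgeR or with DESeq2 (0.115% of all genes were called with edgeR). An unadjusted p under 0.05 was found for 5 of 208 members (2.40%, against 5.25% of all genes). Of the members, 12 lay above all vector libraries (5.77%, against 6.18%) and 4 below (1.92%, against 5.86%). The median log2 fold change was 0.10 over the members (-0.02 without vector replicate B), 0.03 over all genes and 0.16 over other protein-coding genes of chromosome 19. In cluster 4 the median was 0.22, and it was -0.02 without vector replicate B. ZNF730 (log2 fold change 1.18 ± 0.47, edgeR adjusted p = 0.804) and ZNF880 (1.05 ± 0.53, edgeR adjusted p = 0.9997) had the largest positive differences without overlap, and ZNF135 (-0.42 ± 0.27) and ZNF8 (-0.32 ± 0.20) the largest negative ones. These comparisons share the vector libraries with those of clone A1.

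Clone A4 against clone A1 does not compare with the vector levels. The vector libraries still enter the filter, the scaling and the shared estimate of spread behind the SE and p values. No member was called (0.161% of all genes were), 9 of 208 had an unadjusted p under 0.05 (4.33%, against 6.63% of all genes) and DESeq2 called 1, ZNF738. The share of all genes called by DESeq2 is not given here, so this call is not set against genes at large. All A4 libraries were above all A1 libraries for 4 members (1.92%, against 7.92% of all genes) and below them for 12 (5.77%, against 5.72%). The median log2 fold change was -0.11 over the members, while the other protein-coding genes of chromosome 19 had a median of 0.36. In cluster 4, 15 of 19 genes were lower in clone A4, with a median of -0.53, while 10137 of all 21682 genes tested were lower. For 6 of the 19 all A4 libraries lay below all A1 libraries (31.6%, against 5.72% of all genes). The cluster 4 median was -0.30 without clone A1 replicate A.

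ZNF492 was at 26.0, 17.8 and 19.6 CPM in clone A1 and at 11.4, 3.98 and 9.80 CPM in clone A4, with a log2 difference of -1.33 ± 0.49 (edgeR adjusted p = 0.576). ZNF738 was at 12.5, 16.2 and 8.14 CPM in clone A4, below all 3 A1 libraries (-1.25 ± 0.33, edgeR adjusted p = 0.310). In the other direction, ZNF30 (cluster 5, 34926903 to 34945170, plus strand) was at 1.51, 1.99 and 1.86 CPM in clone A1 and at 2.64, 2.61 and 3.78 CPM in clone A4 (0.75 ± 0.35, edgeR adjusted p = 0.757). ZNF846 (cluster 2, 9751993 to 9793180, minus strand) was at 2.78, 3.55 and 2.98 CPM in clone A1 and at 4.21, 4.39 and 3.78 CPM in clone A4 (0.41 ± 0.31, edgeR adjusted p = 0.831). None passed the test.

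The repression machinery that these proteins work through was measured beside them. All 31 listed genes, among them TRIM28, SETDB1, the HP1 genes, the HUSH complex and the TET enzymes, were tested, and none was called in any of the 4 comparisons. The number with an unadjusted p under 0.05 was 4 for the NCBP2 libraries together (12.9%, against 5.71% of all genes), 3 for A1 (9.68%, against 7.51%) and 6 for A4 (19.4%, against 5.25%) against vector, and 1 between the 2 clones (3.23%, against 6.63%). TRIM28, the KRAB corepressor, was at 36.9 ± 14.8, 44.6 ± 11.1 and 41.9 ± 12.0 CPM in clone A1, clone A4 and vector, and SETDB1 at 29.4 ± 6.91, 32.5 ± 4.30 and 32.7 ± 4.12 CPM. The SD is over 3 libraries of 1 clone for A1 and for A4, and over 3 clones for vector. CBX5, which encodes the heterochromatin protein HP1 alpha, was at 583.5 to 717 CPM in the NCBP2 libraries and at 1026, 889 and 1029 CPM in the vector clones (log2 fold change -0.62 ± 0.12, edgeR adjusted p = 0.150). TET1, a 5-methylcytosine dioxygenase, had the largest positive value of the list (0.69 ± 0.22, edgeR adjusted p = 0.577). ZNF274 was at 13.8 to 20.6 CPM over the 9 libraries, with a log2 fold change of 0.05 ± 0.19 for the NCBP2 libraries (edgeR adjusted p = 0.999).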

How the data were processed

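For each of the 9 libraries the authors deposited whole-number read counts per gene, without regard to strand and for each strand; STAR 2.7.1a and GRCh38 are named in the submitters' processing notes, and the annotation is not given in the sources used here. The strand column that holds over 90% of stranded counts was used, without the 4 summary lines that name no gene, which hold 44.5 to 63.6% of reads. Identifiers were matched to GENCODE 44 without their version (60295 of 60609; of the members, 144 of 240 had the same version), which gave symbols, positions and exon lengths. CPM values use edgeR's TMM library sizes. Tests used edgeR 4.0.16 (filterByExpr, robust quasi-likelihood fit, Benjamini-Hochberg over all genes tested), with 2 groups for the NCBP2 libraries and 3 groups for single clones; DESeq2 1.42.0 was an alternative. Fold changes are log2. The fits took each library as 1 unit, although clones A1 and A4 gave 3 libraries each, so SE and p values may be too small. With counts summed per clone, edgeR called no member for the NCBP2 libraries. The fits were also run on simulated counts with every library drawn independently. That run checked the code and says nothing about several libraries of a single clone. Where RefSeq listed several starts (35 members), the one nearest the GENCODE start was used. Genes named with values were those silent in some clones, the 5 highest per length, the 2 largest changes in each direction without overlap at an average log2 CPM of at least 0, ZNF274, TRIM28 and SETDB1; all other genes given with values, among them the cluster 4 genes, ZNF283, ZNF850, ZNF878, ZNF784, ZNF536, ZNF837, CBX5 and TET1, were chosen after their values were seen. The members and lists were chosen with earlier results of these data known. Alternatives were another tool, another scaling, no filter, unstranded counts, a replicate block, other limits for silence, counts summed per clone and each library left out. Totals of 29234022 to 50554080 gene counts per library set the precision of single levels. The Wilson intervals are for shares of genes, take genes as independent and do not cover the spread between libraries or clones.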

Additional observations from a re-analysis of the deposited data

Results flagged for a closer look

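In the 6 NCBP2 libraries, 5 named genes had clone A1 replicate A far above the other 5, beyond Dixon's 95% limit of 0.625 for the gap over the range. The values in that library were 4.36 CPM for ZNF208 (next 0.629), 1.79 CPM for ZNF382 (next 0.629), 240.3 CPM for ZNF121 (next 187), 169.3 CPM for ZNF507 (next 130) and 7.98 CPM for ZNF730 (next 3.46). Chance flags about 1 in 20 groups of independent values, and 31 genes were screened. That rate may not hold here, since the 6 libraries come from 2 clones. Genes such as ZNF208, ZNF382 and ZNF730 were also named by their values in these libraries. All 5 flags fall on the same library and are not separate results. ZNF30 lay on opposite sides of the vector libraries in the 2 clones: all clone A1 libraries were below and all clone A4 libraries above them, with a clone A1 minus clone A4 difference in means of -1.23 CPM. The contrast of clone A4 with clone A1 did not pass the edgeR test for ZNF30 (adjusted p = 0.757).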

How the results depend on the processing

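Counts of called members depended on the tool and the filter. DESeq2 called 1 member for the NCBP2 libraries, 5 for clone A1 and 1 for clone A4 against clone A1; edgeR without the filter on low counts called 12 for clone A1, 1 for clone A4 and 4 for clone A4 against clone A1. The cause was not tested. Shares of all genes called under these settings are not given here. The counts thus do not show whether members were called more often than other genes. With the replicate letter as a block, edgeR called 1 member for clone A1 (ZNF283, adjusted p = 0.0211) and none in the other comparisons; same-lettered libraries did not all deviate together (r from -0.10 to 0.18 across genes), so the letters were not taken as pairs. With 10 counts as the limit for silence, 1 member was silent in a single clone and 0 had a 10-fold range; with 1 CPM as the limit for expression, 1 was silent in some clones and 1 had a 10-fold range. Leaving out each library gave 1 (without clone A1 replicate A) to 5 (without clone A1 replicate C) members with a 10-fold range. The cluster 4 median for the NCBP2 libraries ran from 0.29 (without vector replicate B) to 0.86 (without vector replicate A) and was 0.13 without clone A1 replicate A and vector replicate B, and that of cluster 8 for clone A1 ran from 0.13 (without clone A1 replicate A) to 0.44 (without clone A1 replicate C) and was -0.020 without the 2 libraries, an alternative chosen after seeing the data. The limit of 3 counts for silence corresponds to at most 0.105 CPM and does not separate a low level from none.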
